A study of Rattus norvegicus with 16 samples.

Results

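The comparison described here set left ventricles of 4 male rats 8 weeks after surgery to open an aortocaval fistula (ACF) against left ventricles of 4 control rats, which are 8 of the 16 arrays of the series. Arrays were chosen by their sample titles alone, 1 array per title, and no measured value entered the choice. The ACF is a surgical opening between the abdominal aorta and the inferior vena cava, so that arterial blood returns directly to the heart and the ventricle carries a volume overload (VO). All rats were adult Sprague-Dawley males without transgenes or drug treatment, and the methods place 8 weeks after ACF in the compensated hypertrophy (CH) phase and 16 weeks in heart failure (HF). The control arrays are labelled baseline while the methods describe sham surgery, so the age and surgery of these rats cannot be told apart from the shunt. The labels call the samples replicates of a group without saying more about the animals. The p values of the main test measure only the spread between arrays within groups, pooled over all 16 arrays of the series.

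A volume-loaded ventricle dilates and adds muscle mass, and the collagen and elastic fibre network around its myocytes is taken apart and rebuilt while the chamber grows. Resident cardiac macrophages, fibroblasts and the lysyl oxidase enzymes that cross-link collagen and elastin all take part in that remodelling in the heart. The question put to the data was which genes of any class differed at this early stage, beyond the glucose and lipid metabolism that the study pursued.

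Values are log2 intensities after each array was centred on its own median, so that 0 is the median probe set of that array. Each of 14217 genes was represented by 1 probe set, the one whose mean over the 16 arrays was highest. Differences are log2 fold changes, 8 weeks minus control, with the standard error (SE) of a limma model over all 16 arrays. A gene passed at a p below 0.05 after Benjamini-Hochberg adjustment over all genes.

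The tissue label held for myocytes. Tnnt2 and Tnni3, troponin subunits of the cardiac sarcomere, lay between 7.97 and 8.14 on all 8 arrays, above at least 99.9% of genes in the controls. Markers of atrial muscle were high on several arrays of both groups. Myl7, the atrial myosin regulatory light chain, read -0.33, 5.19, -0.45 and 6.34 in control arrays 1 to 4 and 4.09, 6.91, -0.00 and 6.27 in the 8-week arrays 1 to 4. Both groups thus held arrays with Myl7 near the array median and arrays with Myl7 far above it. Over the 10 atrial and conduction markers, none lay above or below all controls. Their summed linear level ran from 31.7 to 162 in controls and from 160.1 to 381.6 at 8 weeks. That sum rests on the highest members, among them the natriuretic peptide gene Nppa. On the 8-week array 3, Nppa read 7.66 while Myl7, Myl4 and Sln read -0.00, 0.70 and -0.30. The sum therefore does not follow Myl7, Myl4 and Sln. Control 4 and the 8-week array 2 were the highest of their groups in the mean of Sln, Myl4 and Myl7, at 4.15 and 5.06. S100a8 and S100a9, calcium-binding proteins of neutrophils, were high on the 8-week arrays 3 and 4, at 2.81 and 2.95 for S100a8, while the other 6 arrays lay between -1.41 and 1.04. The 8-week array 2 also had the only low deposited median of the 8 arrays, 5.93 against 6.13 to 6.17 for the rest. The part of these differences in the results below was not tested except where values without an array are given.

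**Figure D1:**
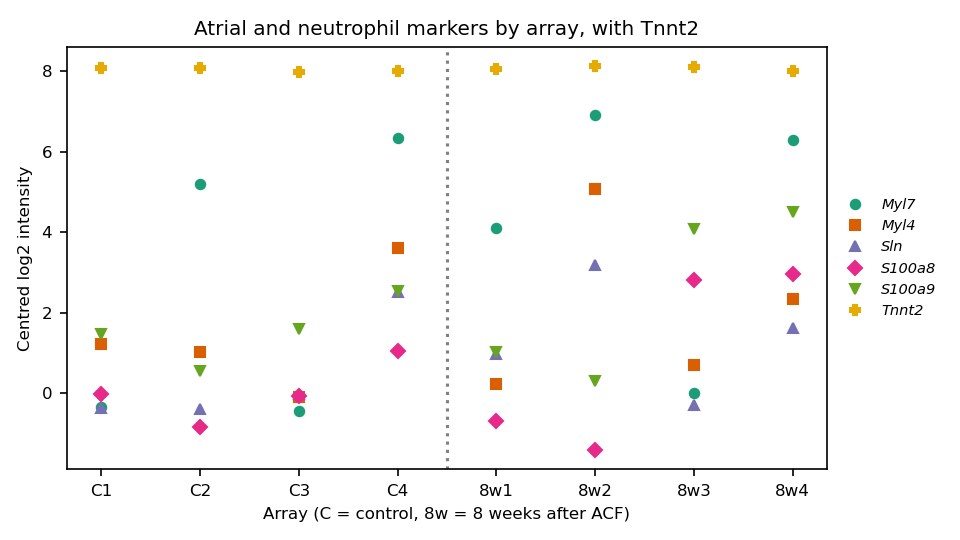
Centred log2 intensity (vertical axis) of the atrial markers Myl7, Myl4 and Sln, the neutrophil markers S100a8 and S100a9 and the myocyte gene Tnnt2 on each of the 8 arrays (horizontal axis; 1 point per gene and array). Tnnt2 stays near 8, while Myl7 ranges from -0.45 to 6.91 in arrays of both groups and S100a8 and S100a9 stand high on the 8-week arrays 3 and 4.

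At 8 weeks, 7 genes rose and 1 fell. The rises comprised Colec11, Mrc1, Fbn1, Rarres1, Cybb, Medag and C1qa, with log2 fold changes from 0.82 to 1.57, and the fall was Car2, with -0.66. Of 14217 genes tested these were 0.0492% and 0.00703%. Far more genes had 4 arrays at 8 weeks entirely outside the range of the 4 controls, 488 above (3.43%) and 388 below (2.73%). With 1 of the 8 arrays left out, such counts are larger by construction, and the shares of all genes ran from 4.33% to 6.32% above and from 3.63% to 5.75% below. At an unadjusted p under 0.05 there were 653 higher (4.59%) and 459 lower (3.23%), of which 173 (1.22%) and 52 (0.366%) differed more than 1.5-fold. The methods' test called 0 genes after adjustment, with 796 higher and 600 lower at an unadjusted p under 0.05. Over all genes the log2 fold changes had a median of -0.0029, and 49.1% were positive.

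Colec11, a secreted collagen-like lectin that starts the complement lectin pathway, had the smallest p of all genes. It read 0.75, 0.77, 0.65 and 1.26 in controls and 2.49, 2.77, 2.01 and 2.44 at 8 weeks. The lowest 8-week array stood above the highest control, and the log2 fold change was 1.57 (SE 0.19, limma adjusted p = 0.0028, n = 4 per group). Its call also held in each of the 8 fits that left out 1 of these arrays, with adjusted p from 0.001416 to 0.02385.

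Fbn1, fibrillin-1, the backbone of the microfibrils on which elastin is laid down, read 2.34, 2.40, 2.27 and 2.97 in controls. At 8 weeks its arrays read 3.72, 3.77, 3.77 and 3.97, a narrow band well above all controls. The log2 fold change was 1.31 (SE 0.21, limma adjusted p = 0.0326), and a second probe set of the gene gave 1.26.

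Of the other rises, 3 belong to genes strongly expressed in macrophages. Mrc1, the mannose receptor CD206 of tissue-resident macrophages, read 2.00, 2.07, 1.85 and 2.35 in controls and 3.23, 3.31, 3.48 and 3.06 at 8 weeks. Its log2 fold change was 1.21 (SE 0.19, limma adjusted p = 0.0326). Cybb, the catalytic subunit of the phagocyte NADPH oxidase, read 1.80, 1.98, 1.92 and 1.82 in controls against 2.60, 2.77, 3.24 and 2.93. Its 4 controls differed by little, and the log2 fold change was 1.01 (SE 0.17, limma adjusted p = 0.0397). C1qa, a chain of the complement starter C1q made mainly by macrophages in tissue, lay between 2.33 and 2.60 in controls and between 3.10 and 3.54 at 8 weeks, a log2 fold change of 0.82 (SE 0.14, limma adjusted p = 0.0432).

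Rarres1, a retinoid-responsive carboxypeptidase inhibitor, read 0.41, 0.55, 0.39 and 0.34 in controls and 1.23, 1.24, 1.37 and 1.48 at 8 weeks, with a log2 fold change of 0.91. Medag, a gene first described in mesenteric fat formation, lay between 2.28 and 2.75 in controls and between 3.23 and 3.59 at 8 weeks, a log2 fold change of 0.90. The other probe sets of Medag disagreed with each other, from 0.01 to 1.27. Car2, the cytosolic carbonic anhydrase that converts CO2 and water to bicarbonate and protons, read 2.57, 2.53, 2.46 and 2.25 in controls and 1.69, 1.57, 1.96 and 1.95 at 8 weeks. No 8-week array reached the lowest control, and the second Car2 probe set gave -0.65 beside the main -0.66.

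**Figure D2:**
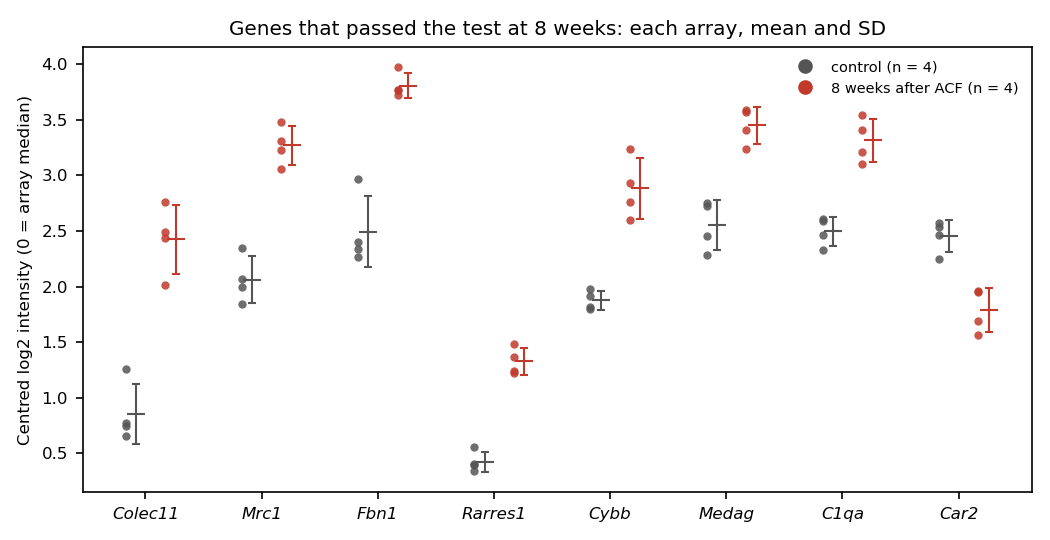
Centred log2 intensity (vertical axis) of the 8 genes that passed the test, on each of 4 control arrays (grey) and 4 arrays at 8 weeks (red), with bars for mean and SD. In all 8 genes the groups do not overlap, and Car2 alone is lower at 8 weeks.

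The other 7 calls depended on single arrays. Without control 1, 2 or 3, or without the 8-week array 1 or 3, Colec11 alone of the 8 passed, and the adjusted p of the other 7 lay between 0.0706 and 0.275. Without control 4 or the 8-week array 2, 5 of the 8 passed, and without the 8-week array 4, 3 passed. The sizes moved little: over these 8 fits Mrc1 ran from 1.13 to 1.30, Fbn1 from 1.24 to 1.47, Cybb from 0.89 to 1.10 and Car2 from -0.73 to -0.59. In simulated data with these genes' spread, 200 genes were changed by 1.5- to 4-fold. There 66% of genes changed 1.5-fold and 96% of those changed 2-fold were recovered in this comparison, with 7 false calls. The simulated noise was independent between genes and held no differences shared by whole arrays. More changed genes also make the adjustment more lenient, and 8 passed here, so these shares do not give the recovery in the real data.

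Macrophage genes formed the group with the largest median shift of the 48 gene lists. Of 18 measured markers, all 18 had positive log2 fold changes, 15 (83.3%) had all 4 arrays above all 4 controls against 3.43% of all genes, and 2 passed the test, Mrc1 and C1qa. The median log2 fold change of the list was 0.85 against -0.0029 over all genes. The count above all controls was 15 or 16 whichever of the 8 arrays was left out. In bulk tissue more cells of a type and more RNA per cell cannot be told apart.

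Cd163, the haemoglobin scavenger receptor of resident macrophages, read 0.10, -0.34, -0.19 and 0.42 in controls and 0.95, 1.35, 1.12 and 1.34 at 8 weeks. The groups did not overlap, with a log2 fold change of 1.19 (SE 0.23, limma adjusted p = 0.067). Lyve1, a hyaluronan receptor of perivascular macrophages and lymphatic vessels, lay between 2.61 and 3.41 in controls and between 3.93 and 4.38 at 8 weeks, a difference of 1.17 (adjusted p = 0.16 by limma). Csf1r, the receptor for the macrophage growth factor CSF1, lay between 1.78 and 2.09 in controls and between 2.54 and 2.70 at 8 weeks, a difference of 0.71 (adjusted p = 0.077 by limma). The C1q chains ran together, with C1qb at 0.88 and C1qc at 0.94 beside C1qa. Folr2, the folate receptor of resident macrophages, differed by 0.65, Stab1 by 0.70, the lipopolysaccharide co-receptor Cd14 by 0.97 and the clotting factor subunit F13a1 by 0.99. The lowest of the list were Itgam, an integrin chain shared with neutrophils, at 0.30 and Fcgr3a at 0.21, and these as well as Adgre1 overlapped the controls.

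Lists of other blood cells had lower medians. Of 21 lymphocyte and mast cell markers, none lay above and 1 (4.76%) below all controls, against 2.73% of all genes below, and the median was -0.12. The count below was 4 (19%) without control 4, beside 5.75% of all genes. It was 2 (9.52%) when control 1 or the 8-week array 1, 3 or 4 was left out, beside 3.63%, 4.47%, 4.27% and 4.92%. Cd3e, a T cell receptor subunit, differed by -0.21 (SE 0.16), and the B cell gene Ms4a1 lay between -1.85 and -1.67 in controls, far below the array median. Of 10 monocyte and neutrophil markers, 2 (20%) lay above all controls, against 3.43% of all genes, and the median was 0.32. Without both arrays high in atrial markers 5 (50%) did, beside 8.62%. Lyz2, lysozyme of myeloid cells, read 4.65, 4.38, 4.93 and 5.01 in controls and 5.86, 5.41, 5.96 and 5.60 at 8 weeks. S100a9 did not separate the groups, since the 8-week arrays read 1.03, 0.31, 4.07 and 4.49 against 0.55 to 2.53 in controls. The monocyte receptor Ccr2 differed by 0.10. Of 32 chemokines and receptors 4 (12.5%) lay above all controls against 3.43% of all genes, and 7 without the 8-week array 2, beside 5.81%. Of 26 interferon-stimulated genes none did, and the medians were 0.18 and 0.02.

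Colec11 had the largest difference of the complement list, whose median was 0.11, with 20 of 26 genes positive. At an unadjusted p under 0.05, 10 of the 26 were higher, while 4.59% of all genes were. Of 26 measured genes, 4 (15.4%) lay above all controls against 3.43% of all genes, and Colec11 was the member that passed. The count was 8 without control 4 and 10 without both arrays high in atrial markers, beside 5.82% and 8.62% of all genes. C3, the component on which the pathways converge, read -1.06, -1.05, -0.53 and -0.04 in controls and -0.14, -0.45, 1.92 and 1.10 at 8 weeks, so that its groups overlapped and the 2 highest arrays were those high in S100a8. C5ar1, the receptor for the C5a fragment, lay above all controls with a difference of 0.63 (adjusted p = 0.24 by limma). The other lectin pathway genes Masp1, Masp2, Mbl1 and Mbl2 had differences from -0.09 to 0.10.

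The upstream sequences of the 3 macrophage genes that passed are shown because these genes moved together. Capitals mark GAGGAA or its reverse complement TTCCTC, the core of PU.1-type sites, PU.1 being a myeloid factor of the ETS family. Sites of other ETS factors were not searched for. Each run is the 250 bases before the RefSeq transcription start (GRCr8), 5′ to 3′ on the gene's strand.
Mrc1 (chr17:82157475-82157724, plus strand): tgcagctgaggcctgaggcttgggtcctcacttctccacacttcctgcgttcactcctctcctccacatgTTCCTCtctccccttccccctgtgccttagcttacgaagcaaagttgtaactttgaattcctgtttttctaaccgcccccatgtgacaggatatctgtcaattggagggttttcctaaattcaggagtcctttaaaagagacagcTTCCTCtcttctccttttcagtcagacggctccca
Cybb (chrX:16065066-16065315, minus strand): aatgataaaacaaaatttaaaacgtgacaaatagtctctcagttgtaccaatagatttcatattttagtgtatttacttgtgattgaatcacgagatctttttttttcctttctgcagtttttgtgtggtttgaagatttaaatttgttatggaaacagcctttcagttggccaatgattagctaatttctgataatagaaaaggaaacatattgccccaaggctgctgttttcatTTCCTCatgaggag
C1qa (chr5:154419934-154420183, minus strand): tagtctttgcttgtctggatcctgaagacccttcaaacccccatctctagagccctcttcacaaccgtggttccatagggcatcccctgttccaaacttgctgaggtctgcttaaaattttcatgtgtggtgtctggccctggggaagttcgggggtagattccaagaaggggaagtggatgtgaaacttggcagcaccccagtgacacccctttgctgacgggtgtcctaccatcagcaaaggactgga
The motif occurred 2 times for Mrc1, with first bases 180 and 35 bases before the start, and 1 time for Cybb, 14 bases before the start. It did not occur in the C1qa window. These 6 letters are common: 23.3% of all 33469 RefSeq promoters hold them on either strand within the same 250 bases. Of the macrophage markers, 13 had a promoter sequence and 9 of these (69.2%) held the motif, against 23.2% of 11446 tested genes. A match is a description of letters and not of a bound site.

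The matrix lists differed among themselves, and Fbn1 was the only gene of elastic fibre assembly that passed. Of 23 measured genes of elastic fibre assembly, 7 (30.4%) lay above all controls against 3.43% of all genes, none lay below, and the median was 0.25. Integrins and laminins, by which cells hold to the matrix, went both ways, with 11 of 21 positive, 4 above and 3 below all controls and a median of 0.02. Over all genes 2.73% lay below. Of 14 genes of collagen processing 1 lay above all controls (median 0.09), and of 21 proteoglycans 3 did (median 0.10). Without control 4 these last counts were both 6, and without the 8-week array 1 they were 3 and 5, beside 5.82% and 6.32% of all genes. The collagen processing count was 2 without the 8-week array 2, beside 5.81%. Lox, lysyl oxidase, which cross-links collagen and elastin, read 1.06, 0.84, 1.15 and 1.16 in controls and 2.25, 1.80, 2.73 and 2.58 at 8 weeks. The groups stood apart by more than the range of the controls, with a log2 fold change of 1.29 (SE 0.27, limma adjusted p = 0.0982). Loxl1, the family member tied to elastin renewal, read 2.04, 2.18, 2.44 and 2.72 in controls and 3.5, 3.27, 3.63 and 3.64 at 8 weeks, a difference of 1.16 (SE 0.22, limma adjusted p = 0.0642). Loxl2 differed by 0.42 and Loxl3 by 0.19.

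Several proteins of the microfibril had positive differences like Fbn1. Mfap5, a microfibril glycoprotein, read 3.68, 3.6, 3.64 and 4.18 in controls and 4.51, 4.70, 4.73 and 4.59 at 8 weeks. Fbln2, a fibulin of the vessel wall and valves, lay between 2.58 and 3.13 in controls and between 3.26 and 4.06 at 8 weeks. Both had a difference of 0.86 and no overlap, with limma adjusted p of 0.134 and 0.184. Eln, elastin itself, read 0.73, 0.36, 0.83 and 1.00 against 1.39, 1.38, 1.07 and 1.48, a difference of 0.60 (adjusted p = 0.122 by limma). Fbn2, Mfap2 and Fbln5 lay within 0.12 of no difference.

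All 20 measured collagen chains had positive differences, from 0.01 to 1.12, with a median of 0.42, and 8 (40%) lay above all controls against 3.43% of all genes, though none passed. Col8a1, a short-chain collagen of remodelling vessels and scars, read 0.77, 0.95, 1.26 and 1.35 in controls and 2.07, 2.21, 2.55 and 1.96 at 8 weeks, a difference of 1.12 (SE 0.27, limma adjusted p = 0.141). Col14a1, which sits on the surface of collagen fibrils, differed by 0.89 (adjusted p = 0.0982 by limma). Of the main fibrillar chains, Col3a1 read 5.35, 5.31, 5.31 and 5.64 in controls against 5.71, 6.12, 6.06 and 6.04, a difference of 0.58. Col1a1 differed by 0.63 and overlapped, because control 4 at 4.01 exceeded the 8-week arrays at 3.61 and 3.88. Without control 4, 15 of the 20 chains (75%) lay above the remaining controls, where the background over all genes was 5.82%. The basement membrane chain Col4a2 differed by 0.10.

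Control 4 was the highest control for many of these genes, and the difference was largest for Postn. This gene encodes periostin, a matricellular protein of activated fibroblasts. It read -0.30, -0.71, -0.41 and 2.07 in controls and 2.12, 2.17, 2.79 and 2.75 at 8 weeks. Control 4 thus sat just under the lowest 8-week array, and the log2 fold change of 2.29 (SE 0.54) had a limma adjusted p of 0.134. Without control 4 the difference was 2.93 (adjusted p = 0.0182 by limma). This array was also the highest control in Sln and Myl4, at 2.50 and 3.6. With both arrays that were highest in atrial markers left out, Fbn1 differed by 1.49 and Postn by 3.03, both with a limma adjusted p of 0.0367, and 11 of the 23 elastic fibre genes lay above the controls beside 8.62% of all genes. The elastic fibre count was also 11 without control 4 alone or without the 8-week array 1 alone, beside 5.82% and 6.32%.

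Among 17 matricellular proteins the median was 0.52 and 4 (23.5%) lay above all controls, against 3.43% of all genes. The count was 8 without control 4 and 7 without the 8-week array 4, where the shares of all genes were 5.82% and 5.29%. It was 9 without both arrays high in atrial markers, beside 8.62%. Ccn2, connective tissue growth factor, lay between 3.56 and 4.43 in controls and read 5.40, 6.32, 5.16 and 4.36 at 8 weeks, a difference of 1.40. Thbs4, thrombospondin-4, differed by 1.67 with overlap. Fn1, fibronectin, differed by 0.70 and Tnc, tenascin-C, by 0.71, both without overlap, whereas Sparc differed by 0.09. Tnc lay far below the array median in both groups, from -2.70 to -2.43 in controls and from -2.15 to -1.46 at 8 weeks. Of 13 fibroblast markers 12 were positive, with a median of 0.18 and differences up to 0.90 for Meox1, and none lay above or below all controls. The preset markers Pdgfra, Dcn, Tcf21 and Dpt had differences from 0.09 to 0.18, while Col1a1 differed by 0.63 and Thy1 by 0.50. Without control 4, 3 of the 13 lay above the controls, beside 5.82% of all genes.

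Matrix proteases and their inhibitors included members on both sides of 0. Timp1, the inducible inhibitor of metalloproteinases, read 1.11, 0.90, 0.89 and 1.60 in controls and 2.50, 2.07, 2.98 and 2.43 at 8 weeks, a log2 fold change of 1.37 (SE 0.45, limma adjusted p = 0.352). Timp2 differed by 0.42 above all controls, and Timp4, the form most abundant in heart, by -0.32 below all controls. Of 28 genes of matrix and elastin breakdown, 7 (25%) lay above all controls and 1 below, against 3.43% and 2.73% of all genes. The count above was 11 without control 4 and 13 without both arrays high in atrial markers, beside 5.82% and 8.62% of all genes. Ctss, cathepsin S, an elastin-degrading protease of macrophages, read 2.73, 2.52, 2.83 and 2.91 in controls and 3.69, 3.5, 3.59 and 3.44 at 8 weeks, a difference of 0.81 (SE 0.15, limma adjusted p = 0.0642). Ctsk and Ctsl differed by 0.53 and 0.58, and Mmp14, a membrane-bound collagenase, by 0.74. The secreted metalloproteinases Mmp3, Mmp9 and Mmp13 had differences from -0.05 to 0.15.

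**Figure D3:**
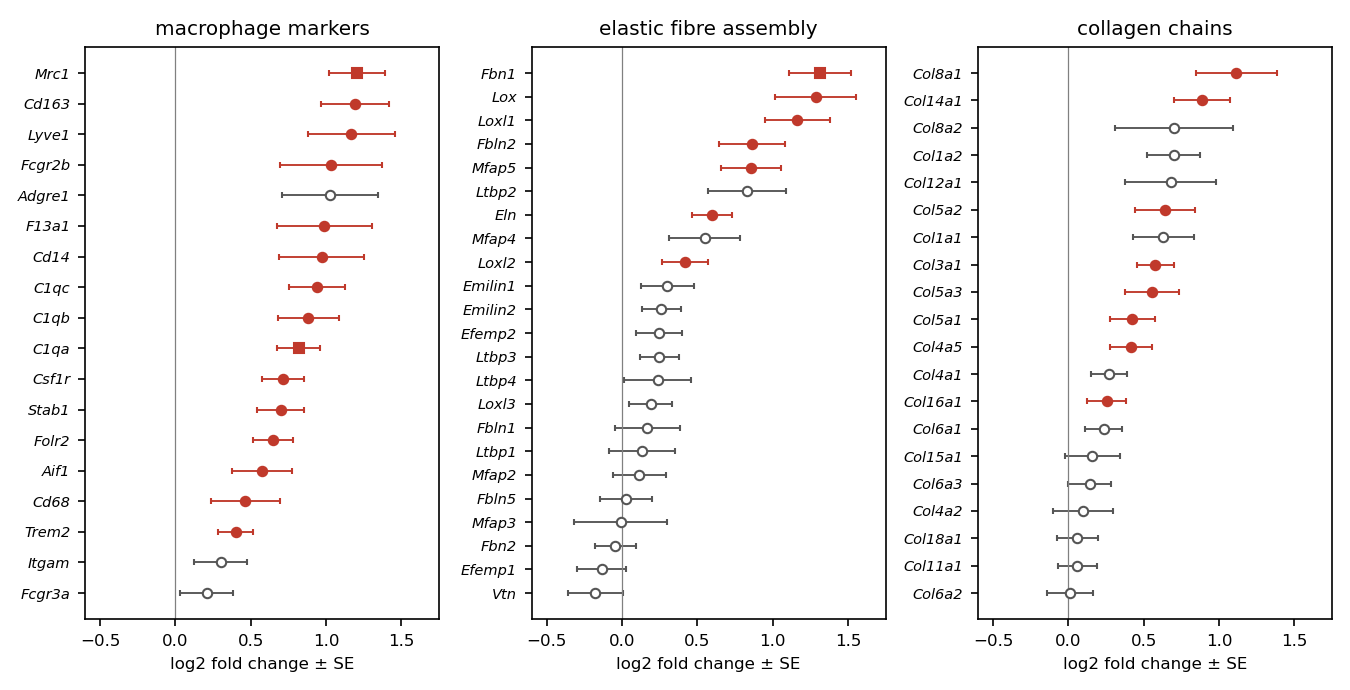
Log2 fold change, 8 weeks minus control, with SE (horizontal axis) for every measured member of 3 lists: macrophage markers, elastic fibre assembly and collagen chains (vertical axis, sorted by size), with red filled symbols for members whose 4 arrays at 8 weeks all lay above the 4 controls, open symbols for the rest and squares for those that passed the test. The macrophage list has 15 of 18 members in red, elastic fibre assembly 7 of 23 and collagen chains 8 of 20.

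Several growth factors and signalling genes were also higher without overlap, and none of those named here passed. Dnah7, an axonemal dynein chain of motile cilia, read -0.83, -2.16, -0.43 and -2.37 in controls and 0.20, 1.79, 1.26 and 2.12 at 8 weeks. The difference of 2.79 (SE 0.52, limma adjusted p = 0.0642) was the largest among genes without overlap, and the controls lay below the array median. Tgfa, transforming growth factor alpha, a ligand of the EGF receptor, read -1.39, -1.92, -1.0 and -0.54 against 2.56, 1.03, -0.49 and 0.53. The 8-week array 3 barely cleared control 4, and the difference was 2.12 (SE 0.67). Inhbb, the beta B subunit of inhibin and activin, lay between -0.68 and 0.57 in controls and between 0.89 and 1.46 at 8 weeks, a difference of 1.36. Tnfrsf11b, osteoprotegerin, a decoy receptor for RANKL, differed by 1.07, and Grk5, a kinase that desensitises adrenergic receptors, by 0.90, both above all controls. Of 33 genes of TGF-beta, BMP and activin signalling 3 (9.09%) lay above all controls against 3.43% of all genes, and Tgfb1, Tgfb2 and Tgfb3 differed by 0.01 to 0.22. The count was 8 without control 4, beside 5.82% of all genes. It was 5 without control 2 or the 8-week array 4, beside 5.51% and 5.29%.

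The largest negative differences without overlap included receptors, signalling proteins and enzymes, and Car2 alone passed. Ppp1r1a, an inhibitor of protein phosphatase 1 controlled by cyclic AMP, read 1.76, 1.63, 1.11 and 1.01 in controls and 0.14, 0.60, 0.29 and 0.67 at 8 weeks. The difference of -0.95 (SE 0.17, limma adjusted p = 0.0571) came with no overlap, and a second probe set gave -0.34. Rasd2, a small GTP-binding protein, differed by -1.0 and Gabrb2, a GABA receptor subunit, by -1.19, with second probe sets at -0.27 and -0.08. Kcnj5, a subunit of the acetylcholine-gated potassium channel, lay between 1.81 and 2.07 in controls and between 1.10 and 1.51 at 8 weeks, a difference of -0.62. Gstz1, a glutathione transferase of tyrosine breakdown, Cbr1, a carbonyl reductase, and Bckdha, a subunit of branched-chain ketoacid dehydrogenase, differed by -0.80, -0.76 and -0.75, though the second Bckdha probe set gave -0.02. Of 31 antioxidant and glutathione enzymes, 15 were positive, the median was -0.0062, none lay above all controls and 3 (9.68%) below, against 2.73% of all genes. These were the glutathione transferases Gsta4, Gstm2 and Gstp1, at -0.50, -0.55 and -0.39. Without control 4, 3 members lay above the controls, beside 5.82% of all genes.

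Of 29 genes of fatty acid oxidation, 12 (41.4%) lay below all controls against 2.73% of all genes, none above, and none passed. The median was -0.22, the lowest of the 48 lists. Echdc2 and Acsf2 differed by -0.50 and -0.51, and Hadha, a subunit of the mitochondrial trifunctional protein, by -0.35, while its other probe sets gave 0.02 to 0.05. The list median moved to -0.16 without the 8-week array 2. The 53 genes of the respiratory chain and ATP synthase had a median of -0.03 with 1 (1.89%) below all controls. The 14 genes of the citric acid cycle had one of -0.10 with 2 (14.3%) below, and 2.73% of all genes lay below. Without control 4 these counts were 7 (13.2%) and 5 (35.7%), beside 5.75% of all genes. Without the 8-week array 4 they were 5 (9.43%) and 5 (35.7%), beside 4.92%. The respiratory chain count was also 4 without control 3, and 2 without control 2 or the 8-week array 2. The shares of all genes there were 4%, 4.12% and 4.41%.

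Genes of the contractile apparatus had a median near 0. The 22 sarcomere and Z-disc genes had a median of 0.0031. Myh6 and Myh7, the alpha and beta myosin heavy chains, differed by -0.05 (SE 0.22) and 0.04 (SE 0.11), though a second Myh6 probe set gave -0.40. In controls Myh6 read 8.01 to 8.17 and Myh7 7.71 to 8.23, among the highest genes of the arrays. Whether signals this high still follow the amount of RNA was not tested, so small differences do not show that these genes were unchanged. Acta1, skeletal actin, a member of the fetal gene programme, differed by 0.18 and the calcium pump gene Atp2a2 by 0.03. Nppa, the precursor of atrial natriuretic peptide, read 6.90, 5.82, 4.20 and 5.71 in controls and 7.16, 7.70, 7.66 and 6.05 at 8 weeks. The 8-week array 4 lay below control 1, and the difference of 1.48 (SE 0.45) had a limma adjusted p of 0.318. Nppb differed by 0.62 with overlap, at 7.09, 6.65, 7.04 and 5.90 against 5.88 to 6.32. Of 28 calcium handling genes 3 lay below all controls, among them Hrc, a calcium-binding protein of the sarcoplasmic reticulum, at -0.32, and Camk2g at -0.40, and 2 lay above, while 2.73% and 3.43% of all genes did so. The count below was 6 without the 8-week array 4, beside 4.92% of all genes. It was 5 without the 8-week array 2 or without control 1, beside 4.41% and 3.63%.

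**Figure D4:**
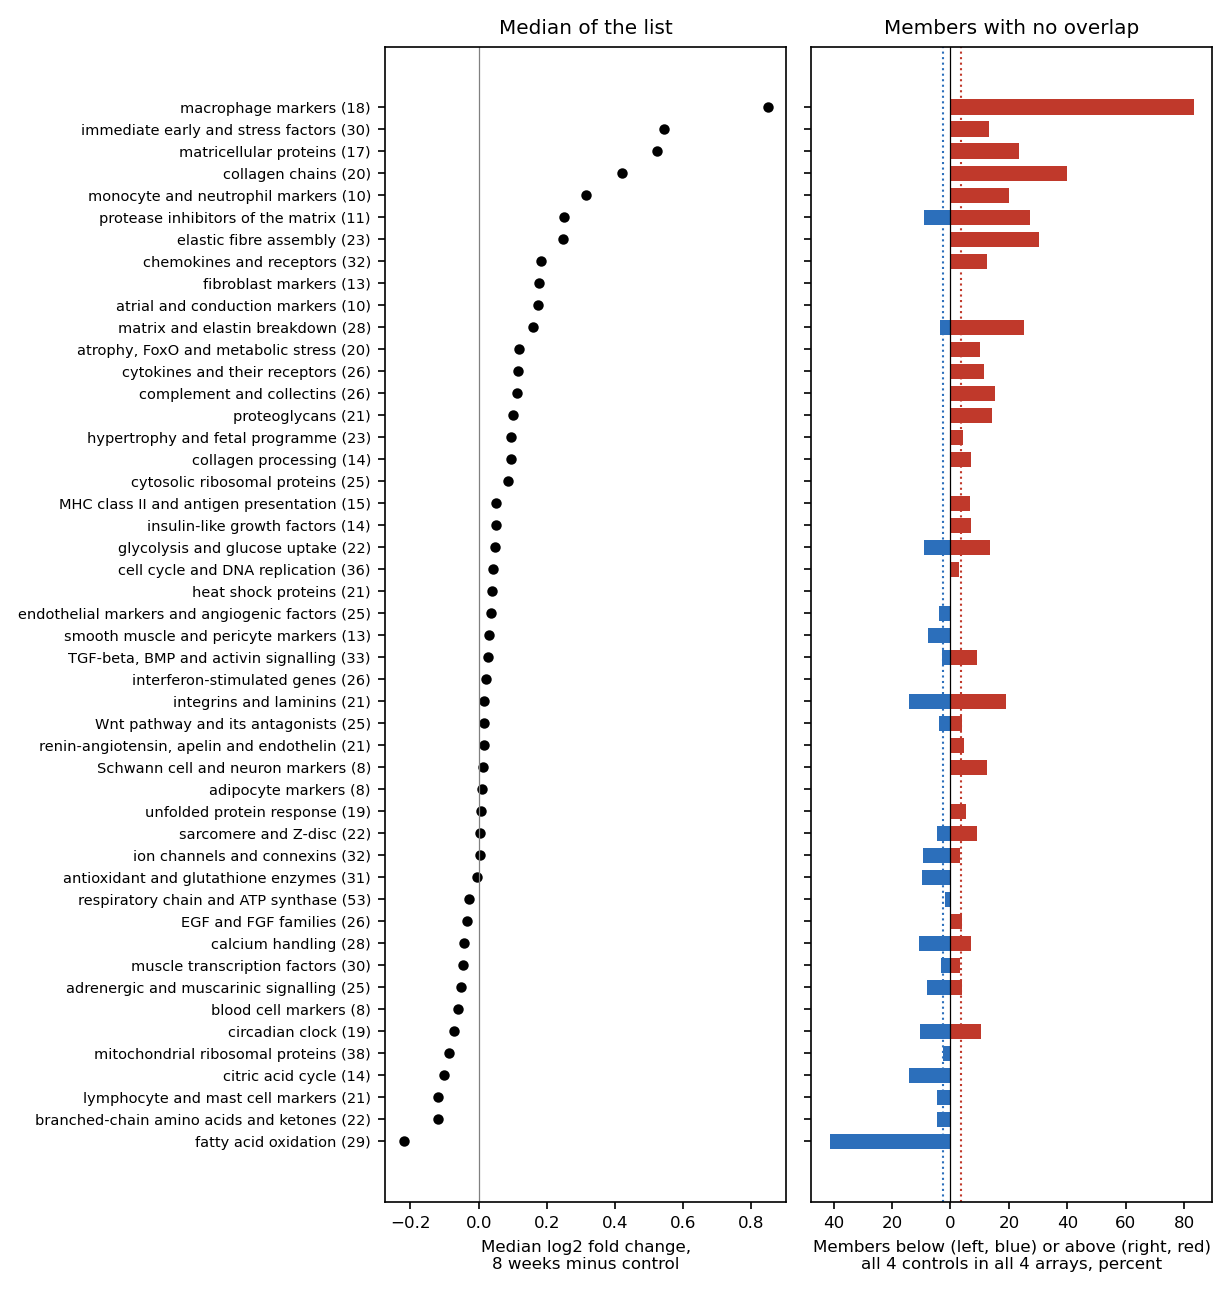
Median log2 fold change, 8 weeks minus control, of each of the 48 gene lists (left; number of measured genes in parentheses), and the percentage of members whose 4 arrays all lay below (blue, to the left) or above (red, to the right) the 4 controls (right; dotted lines, the same over all genes, 2.73% and 3.43%). Macrophage markers have the highest median, 0.85, and fatty acid oxidation the lowest, -0.22.

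Clock genes stood away from the controls on most 8-week arrays, though none passed, and the 8-week arrays differed among themselves. Cells keep daily time by a loop in which the proteins Bmal1, Clock and Npas2 switch on Per, Cry, Dbp, Tef and Nr1d genes. The products of the Per, Cry and Nr1d genes then switch the loop off again, so the levels depend on the hour. The hour at which hearts were taken is not given in the sources used here, so hour and group cannot be told apart. Dbp, a transcription factor at the output of the loop, read 3.72, 3.77, 3.29 and 3.6 in controls and 0.55, 3.17, 2.62 and 1.93 at 8 weeks. Array 2 lay just under the controls and array 1 far below, and the difference was -1.53 (SE 0.36, limma adjusted p = 0.132). Bmal1, on the opposite arm, read -0.30, -0.22, 0.11 and -0.51 in controls and 2.04, -0.09, 0.92 and 2.02 at 8 weeks, so that array 2 lay within the controls. Npas2 showed the same order, at 1.29, -1.53, 0.30 and 0.78 against controls from -1.43 to -0.68.

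Bhlhe41, a repressor of the loop, read 3.61, 3.74, 3.48 and 3.31 in controls and 2.08, 3.12, 2.74 and 2.53 at 8 weeks, a difference of -0.92 (SE 0.18, limma adjusted p = 0.077). Per2 read 1.33, 3.66, 2.47 and 2.05 at 8 weeks against controls from 2.71 to 3.25, with array 2 above and the other 3 below. Of 19 measured clock genes 2 lay above and 2 below all controls, against 3.43% and 2.73% of all genes. Leaving out array 2, 5 lay above and 7 below, where the background was 5.81% and 4.41%. Without that array Dbp, Bhlhe41 and Bmal1 passed, at -1.90, -1.09 and 1.89, each with a limma adjusted p of 0.04516. Among arrays at the higher median level alone, Bhlhe41 was the only one of the 3 to pass (adjusted p = 0.0246 by limma). At 16 weeks all 4 arrays read Dbp between 0.93 and 1.10, and at 24 weeks between 2.80 and 3.24.

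Upstream sequences of 3 clock genes are shown because the loop acts through short elements near such genes. Capitals mark the E-box CACGTG in Bhlhe41 and Tef and the D-box TTATGTAA in Per2, in the 250 bases before the RefSeq start (GRCr8), 5′ to 3′ on the gene's strand.
Bhlhe41 (chr4:180569356-180569605, minus strand): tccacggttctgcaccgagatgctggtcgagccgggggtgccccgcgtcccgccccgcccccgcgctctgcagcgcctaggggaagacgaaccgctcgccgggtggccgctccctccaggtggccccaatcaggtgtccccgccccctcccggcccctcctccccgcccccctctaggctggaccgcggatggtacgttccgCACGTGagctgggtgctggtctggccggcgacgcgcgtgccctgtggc
Tef (chr7:115206577-115206826, plus strand): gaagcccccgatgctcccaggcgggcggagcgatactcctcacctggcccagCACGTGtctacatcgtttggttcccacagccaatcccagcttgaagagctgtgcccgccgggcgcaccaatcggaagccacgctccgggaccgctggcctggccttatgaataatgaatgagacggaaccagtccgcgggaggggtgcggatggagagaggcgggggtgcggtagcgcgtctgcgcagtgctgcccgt
Per2 (chr9:99496994-99497243, minus strand): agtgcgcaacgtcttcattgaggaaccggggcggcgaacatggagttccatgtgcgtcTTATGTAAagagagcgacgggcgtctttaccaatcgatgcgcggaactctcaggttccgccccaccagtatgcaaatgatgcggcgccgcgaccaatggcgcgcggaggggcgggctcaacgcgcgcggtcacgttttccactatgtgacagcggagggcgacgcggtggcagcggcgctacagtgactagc
Each motif occurred 1 time in its window, with its first base 48, 198 and 192 bases before the start. Among all promoters of this length 5.59% held CACGTG, which reads the same on both strands, and 0.828% held TTATGTAA or its reverse complement TTACATAA. Of 16 clock genes with a sequence 3 held the E-box and 1 the D-box, against 7.85% and 0.481% of tested genes. Tef, a relative of Dbp that binds the D-box, differed by -0.54, with 8-week arrays at 2.60, 3.31, 3.09 and 2.54 against controls from 3.24 to 3.63.

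Immediate early genes, which answer within minutes to stretch, hormones or handling, were high on the 8-week array 1. The list median on that array stood 1.04 above the mean of the controls, against 0.57, 0.20 and 0.20 on arrays 2, 3 and 4 and from -0.19 to 0.35 among the controls. Fos, a subunit of the AP-1 factor, read -1.91, 0.26, -0.16 and 2.31 in controls and 5.10, 2.17, 1.2 and 3.01 at 8 weeks, a difference of 2.74 (SE 0.97) with overlap. Ccn1, a secreted early-response protein, read 2.95 on array 1 and 0.07, -1.48 and -1.58 on the others, where the controls lay between -1.65 and -1.29. Its difference was 1.46, and 0.48 without array 1. Egr2 lay above all controls, at 2.34, 0.81, 0.14 and 0.24 against -0.57 to -0.37, with a difference of 1.37, and a second probe set gave 0.05. Dusp6, a phosphatase that turns off ERK, differed by 0.78 above all controls (SE 0.16, limma adjusted p = 0.0982). Of 30 genes 4 (13.3%) lay above all controls, against 3.43% of all genes, and none passed. The median of 0.54 became 0.28 without array 1. The count was 10 without control 4, 8 without the 8-week array 3 and 7 without the 8-week array 4. The shares of all genes were then 5.82%, 4.35% and 5.29%. Cdkn1a, the cell cycle inhibitor p21, lay between 2.01 and 2.89 in controls and between 3.32 and 3.71 at 8 weeks, a difference of 1.07.

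**Figure D5:**
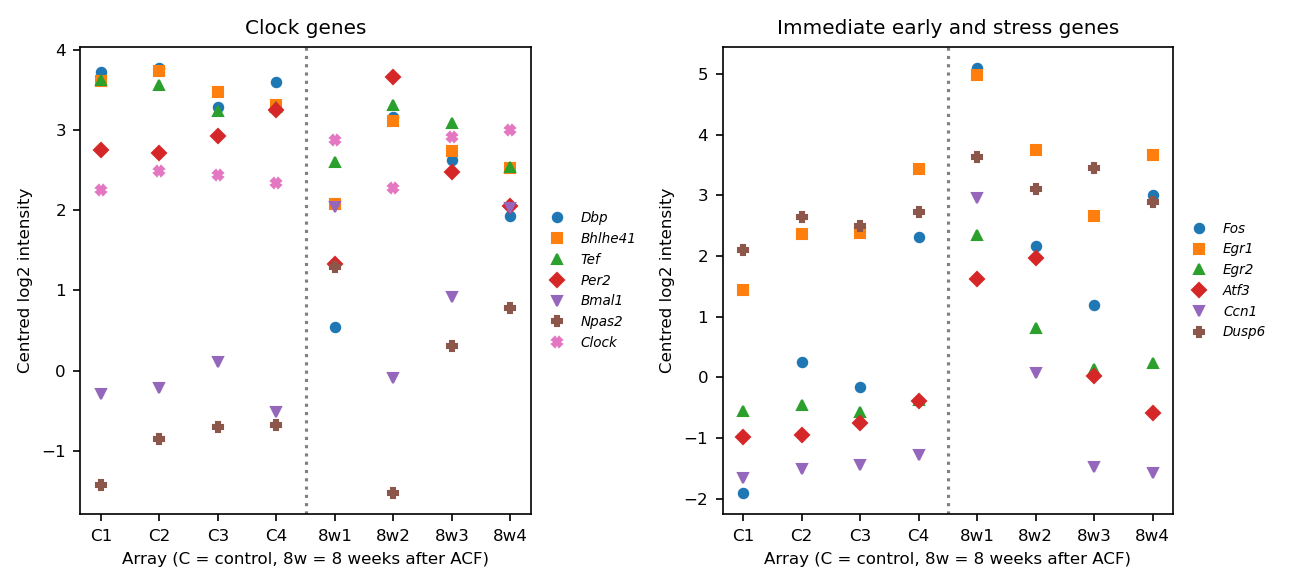
Centred log2 intensity (vertical axis) of 7 clock genes (left) and 6 immediate early and stress genes (right) on each of the 4 control and 4 8-week arrays (horizontal axis; 1 point per gene and array). Of the 8-week arrays, array 2 lies nearest the control mean in 6 of the 7 clock genes and array 3 in Per2, and in the right panel array 1 is the highest of the 8-week arrays in Fos, Egr1, Egr2, Ccn1 and Dusp6.

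Lists of protein folding, cell cycle and ribosomal genes had medians near 0. These were 0.04 for 21 heat shock proteins, 0.0080 for 19 genes of the unfolded protein response, 0.04 for 36 cell cycle and replication genes, 0.09 for 25 cytosolic and -0.09 for 38 mitochondrial ribosomal proteins. Of 50 cytosolic ribosomal proteins listed, 25 were measured and 22 of these were positive, against 49.1% of all genes. Of the 38 mitochondrial ones, 27 were negative. Endothelial, smooth muscle and adipocyte lists had medians from 0.0096 to 0.04, and Adipoq and Plin1, defining genes of fat cells, lay at -0.72 or lower on all 8 arrays.

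The same genes were then set against HF. Directly compared, 16 minus 8 weeks, no gene passed in limma (0% of genes, smallest adjusted p = 0.0538), while 1235 (8.69%) had an unadjusted p under 0.05, and the methods' test also called 0. The 7 genes that had risen by 8 weeks differed further by 0.20 to 0.62, and Car2 by -0.25. The macrophage list had a median difference of 0.35 between 16 and 8 weeks, elastic fibre assembly one of 0.17 and collagen chains one of -0.10. Postn differed by 1.99, with 16-week arrays at 5.17, 5.17, 3.81 and 3.63, all above the 8-week arrays, and Spp1, osteopontin, by 2.43. Both had a limma adjusted p over the threshold, at 0.305 and 0.242. Without the 8-week array 1, Dbp passed in this comparison, at -1.52 (adjusted p = 0.0264 by limma). On the arrays at the higher median level alone, which leaves 3 arrays at 8 weeks and 2 at 16 weeks, 236 genes passed in this comparison, with Postn not among them and Spp1 at 2.58 (adjusted p = 0.0184 by limma).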

How the data were processed

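Left ventricular RNA was hybridised to 1-colour Affymetrix rat arrays, and the authors deposited log2 values made with the RMA method in Affymetrix Expression Console 1.2. That method corrects background, normalizes by quantiles and summarises probes. The deposited medians still differed between arrays, from 5.92 to 6.17, and whether all arrays were normalized together was not tested. The methods name another rat array than the one whose probe sets were deposited. From the deposited log2 values, each array was centred on its median. Of 31099 probe sets, 20826 had 1 gene symbol in the platform annotation, 436 several and 9780 none, and 20758 of the named probe sets were found in the RefSeq table (GRCr8). These gave 14217 genes, 4525 of them with more than 1 probe set. limma 3.58.1 in R 4.3.3 was fitted with 1 mean for each of the 4 groups over 16 arrays, and p values were adjusted by the Benjamini-Hochberg method over all genes. The methods' test, which compares 2 groups gene by gene without a shared spread, was an alternative.

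All genes that passed are named. Further ones came from the 15 largest rises and 15 largest falls among genes with an unadjusted p under 0.05 and no overlap of groups. Up to 4 members with the smallest p of each list described, and preset cardiac and cell type markers, were also drawn on. Not every gene picked by these rules is described. Genes outside these rules were named after their values were seen. The members and lists were chosen with earlier results of these data known, so lists carry counts and medians and no test. Of the list members, 5 were matched through newer symbols: Cd59b, Rig1, Bmal1, Mt1 and Mmut. The fit was tested on simulated data over 14217 genes. The number of arrays, 4 per group, limits the precision, and array intensities carry no read depth. Alternatives covered scaling, the choice of arrays and probe sets, the variance model, array level and the replicate block. Columns without a sample numbered 0.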

Additional observations from a re-analysis of the deposited data

Results flagged for a closer look

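Among 35 genes, 70 groups of 4 arrays were examined for a single array far from the others, and 2 were found, where chance gives about 1 in 20 groups. Postn read 2.07 in control 4, while the other controls lay between -0.712 and -0.296, a gap of 0.851 of the group's range. Paqr9, a receptor-like membrane protein, read 0.602 in the 8-week array 4, while the other 3 arrays lay between 0.838 and 0.854, a gap of 0.935 of the range.

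Probe sets without a single gene symbol were outside the comparison of genes. In a limma fit of 31042 probe sets, 10 passed, 9 higher and 1 lower at 8 weeks, and 2 of them have no single symbol. Both were higher at 8 weeks, the larger difference being 1.31 (limma adjusted p = 0.0394) and the smaller 1.1 (limma adjusted p = 0.04819).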

How the results depend on the processing

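Beside the 7 genes higher and 1 lower reported, the counts were 1 and 0 with values as deposited, 58 and 14 with only the 8 arrays compared in the fit, 135 and 51 with array weights, 8 and 2 with a trended robust variance prior, and 0 and 0 with the methods' test. They were 13 and 3 among the 50% of genes with the highest mean, 5 and 0 when probe sets of a gene were averaged, 27 and 3 with array level as a block, and 43 and 3 on arrays at the higher level. A fold above 1.5 with an unadjusted p under 0.05 gave 173 and 52. With cyclic loess they were 6 and 1. Of 2 alternatives chosen after seeing the data, centring on the median of the genes tested gave 10 and 3, and leaving out the arrays highest in atrial markers gave 3 and 2. Without 1 array in turn the counts ran from 1 to 10 higher and from 0 to 2 lower. With values as deposited the median of all genes was -0.06, and Colec11 alone of the 8 passed. The 8 genes kept their direction in every alternative. Of the 48 lists, 25 kept the sign of their median in every alternative. The causes of these differences were not tested.

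Groups share replicate numbers. With the number as a replicate block, 1 gene was higher and 1 lower, and of the 8 genes Colec11 alone passed, the others having limma adjusted p from 0.05325 to 0.08613. Deviations of control and 8-week arrays with the same number correlated at 0.214, -0.138, 0.0671 and 0.1 over genes, and not every control correlated best with its own number, so the numbers were not taken as pairs.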

Other observations

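RT1-Bb, a chain of the rat MHC class II molecule that presents antigen to T cells, read 2.78, 2.53, 3.16 and 3.29 in controls and -0.43, 2.43, 2.99 and -0.57 at 8 weeks, so that 2 of the 4 arrays at 8 weeks lay far below the rest. Another probe set of the gene differed by 1.34, in the opposite direction to the -1.83 of the one used. This gene was chosen after its values were seen.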
